A study of Mus musculus with 2 samples.

Results

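The collagen genes of injured quadriceps muscle were described across the cells of 2 single-cell RNA libraries, collected at day 1 and day 3 after injury. The members were the 44 genes, of 32285 in the gene list of the count tables, whose symbol had the form of a collagen chain (Col, a type number, a and a chain number). They were chosen by symbol alone, although earlier results of these data were known at the time. A unique molecular identifier (UMI) count above 0 was found in kept cells for 40 of the 44 genes on day 1 and for 43 on day 3, and *Col10a1*, a collagen of growth plate cartilage, had 0 UMIs on both days. A count of 0, taken to allow up to 3 UMIs, limits its level to 0.0422 CPM (counts per 1000000 UMIs) on day 1 and 0.0356 CPM on day 3 over all kept cells.

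Both libraries held mononuclear cells of the quadriceps of male wild-type C57BL/6J mice of 14 weeks, whose muscle had been injured by injection of barium chloride (BaCl2), which kills muscle fibres and is followed by regeneration. The suspension of each day was pooled from 5 mice, frozen, thawed and sequenced as 1 library with the 10x Genomics 3-prime assay, so each day was 1 sample, and the multinucleated fibres were not in it. With 1 library per day there was no replicate of a day, no test was possible, and intervals around a level cover counting error only. Uninjured muscle was not analysed here.

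The libraries held 74852240 UMIs on day 1 and 102565783 on day 3. The 7367 and 6640 barcodes with most UMIs were taken as cells, and those with at least 1000 UMIs, at least 200 genes and at most 7.5% mitochondrial UMIs were kept, 6735 on day 1 and 4627 on day 3, with medians of 9389 and 14548 UMIs. The mitochondrial limit removed 517 barcodes on day 1 and 2013 on day 3, and the kept cells of the libraries shared 0 barcodes. The libraries used different lists of possible barcodes (737280 and 6794880 entries), so a difference of library chemistry and the day cannot be told apart. Barcodes of 1 to 100 UMIs, 571652 on day 1 and 1721514 on day 3, gave the ambient level, that is, the RNA free in the suspension.

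Collagens are the main structural proteins of the extracellular matrix, built from 3 chains wound into a triple helix. Types I, III and V form the fibrils of the connective tissue around muscle fibres, type IV forms the network of the basement membrane that wraps each fibre and vessel, type VI forms beaded filaments that link this membrane to the fibrils, and smaller families sit on fibrils, in basement membranes or in the plasma membrane. In muscle, fibro-adipogenic progenitors (FAPs), the PDGFRα-positive mesenchymal cells between fibres, are known as the chief source of fibrillar collagen after injury.

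Clusters were built without the collagen genes and named from marker lists. Fibroblast/FAP-like cells (647 on day 1 and 830 on day 3) held all 11 of their markers, among them *Pdgfra* at 285 and 245 CPM and *Dcn*, a proteoglycan of fibrils, at 4049 and 1973 CPM. Myogenic-like cells, that is, satellite cells and myoblasts, numbered 4 on day 1 and 194 on day 3, and the day 3 cells held *Myod1* at 549 CPM. Endothelial-like cells numbered 83 and 23, monocyte/macrophage-like cells 3518 and 2810, dendritic cell-like cells 412 and 451, and neutrophil-like cells 2049 and 260. The dendritic cell-like cluster was led by MHC class II genes, yet its summed level of 12 macrophage markers (13864 CPM on day 1 and 11869.7 CPM on day 3) exceeded that of 10 dendritic cell markers (555 and 406 CPM). T/NK cell-like cells (10 and 37) held few collagen UMIs. A mast cell-like cluster had 0 UMIs of all 6 mast cell markers in its 22 day 3 cells, so its name goes against the day 3 data and it is not described further.

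Collagen transcripts were concentrated in the FAP-like cells on both days. On day 1 these cells held 95.7% of all collagen UMIs of kept cells (95% Clopper-Pearson interval 95.5 to 95.8%) while they were 9.61% of the cells, and on day 3 they held 97.1% (97.1 to 97.1%) at 17.9% of the cells. The summed level of the 44 genes in FAP-like cells was 3399 CPM on day 1 (exact Poisson 95% interval 3373 to 3426) and 25577 CPM on day 3 (25514 to 25641). It was therefore several times higher on day 3, when collagen made up 2.56% of the UMIs of these cells against 0.340% on day 1. Ambient RNA showed the same order, at 732 CPM on day 1 and 6181 CPM on day 3. These values rest on how the cells were clustered: with each library clustered on its own, the share was 61.6% on day 1 and 70.2% on day 3, the rest lying mostly in clusters that no marker list named, and with cells under 200 genes per 1000 UMIs left out, the day 1 level was 5508 CPM.

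The other cell types lay below the FAP-like cells on both days. Endothelial-like cells were the next on day 1, at 1746 CPM summed over the collagen genes, and on day 3, at 4587 CPM. Neutrophil-like cells held 29.0 CPM on day 1 and 1999.7 CPM on day 3, myogenic-like cells 962 CPM on day 3, monocyte/macrophage-like cells 17.2 and 144 CPM, and dendritic cell-like cells 59.9 and 132 CPM. All of these except endothelial-like cells on day 1 were below the ambient level of their library.

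**Figure D1:**
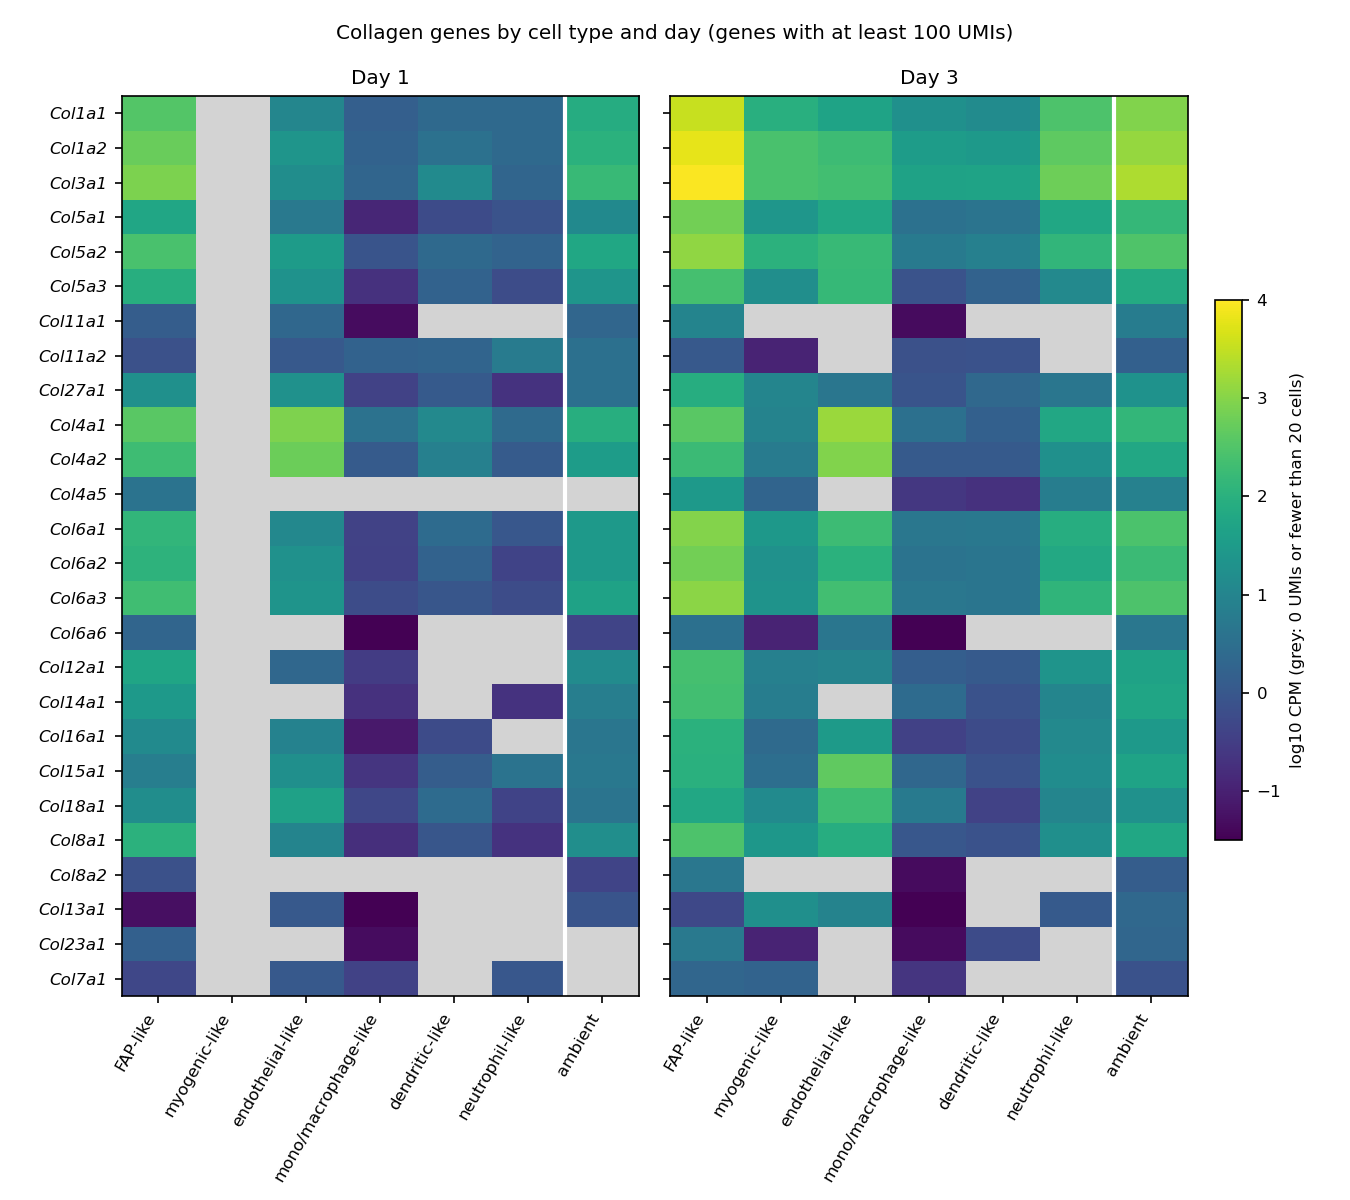
Level of the 26 collagen genes with at least 100 UMIs (vertical axis) by cell type and in ambient RNA (horizontal axis), on day 1 and day 3. Colour gives log10 CPM, and grey marks 0 UMIs or a type with fewer than 20 cells. On both days the FAP-like column is the brightest of the cell types for *Col1a1*, *Col1a2*, *Col3a1*, *Col5a1*, *Col5a2* and *Col6a1* to *Col6a3*, and *Col4a1* and *Col4a2* are brightest in endothelial-like cells.

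Counted gene by gene, 27 collagen genes had at least 20 UMIs over the kept cells of day 1, and 18 of these had their highest level in FAP-like cells, against 39.1% of the 13506 genes compared in the same way. On day 3, 22 of 33 did, against 15.1% of 14931 genes. Endothelial-like cells, a small class of 83 and 23 cells, came highest for 8 genes on each day. The share of all genes that came highest there is not given, so the count is only a description of these 8 genes. On day 1, *Col4a1*, *Col4a2*, *Col18a1* and *Col20a1* of these rested on more than 20 endothelial UMIs, *Col15a1* and *Col27a1* on 16 and 18, and *Col7a1* and *Col11a1* on 1 and 2. On day 3, 4 of those 8 rested on more than 20 endothelial UMIs (*Col4a1*, *Col4a2*, *Col15a1* and *Col18a1*), and the other 4 (*Col4a4*, *Col6a6*, *Col20a1* and *Col26a1*) on 9 or fewer. Myogenic-like cells came highest for *Col13a1* and *Col19a1* on day 3, and neutrophil-like cells for *Col11a2* on day 1.

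Within FAP-like cells, 32 collagen genes had at least 20 UMIs over both days. At least 2-fold higher levels on day 3 were seen for 26 of these, against 26.5% of 13705 genes compared, and at least 2-fold lower levels for 1, against 7.2% of genes. The median log2 ratio of day 3 over day 1 was 2.33 for the collagen genes and 0.35 for all genes compared. Centred on that median of all genes, 25 collagen genes were higher and 1 lower, against 18.8% and 13.3% of all genes. Of the 26, *Col4a6*, *Col7a1*, *Col8a2*, *Col20a1*, *Col26a1* and *Col28a1* had fewer than 20 UMIs on day 1 and passed the limit through day 3. The FAP-like cells of the 2 days lay mostly in different clusters, s1, s3 and s5 on day 1 and s0, s2, s3 and s6 on day 3. Of these, s5 and s2 also held markers of macrophages (4623 and 7308 CPM summed over 12 markers, against at most 139.8 CPM in the others listed). With both left out, collagen stood at 3757 CPM on day 1 and 29356 CPM on day 3, so the difference between the days was about as large without them. Tenocyte markers summed to 984 and 374 CPM in the FAP-like cells, and their part in the ratios was not tested. With 20 principal components, 41 day 1 cells were named tenocyte and held 6.57% of the day 1 collagen UMIs.

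**Figure D2:**
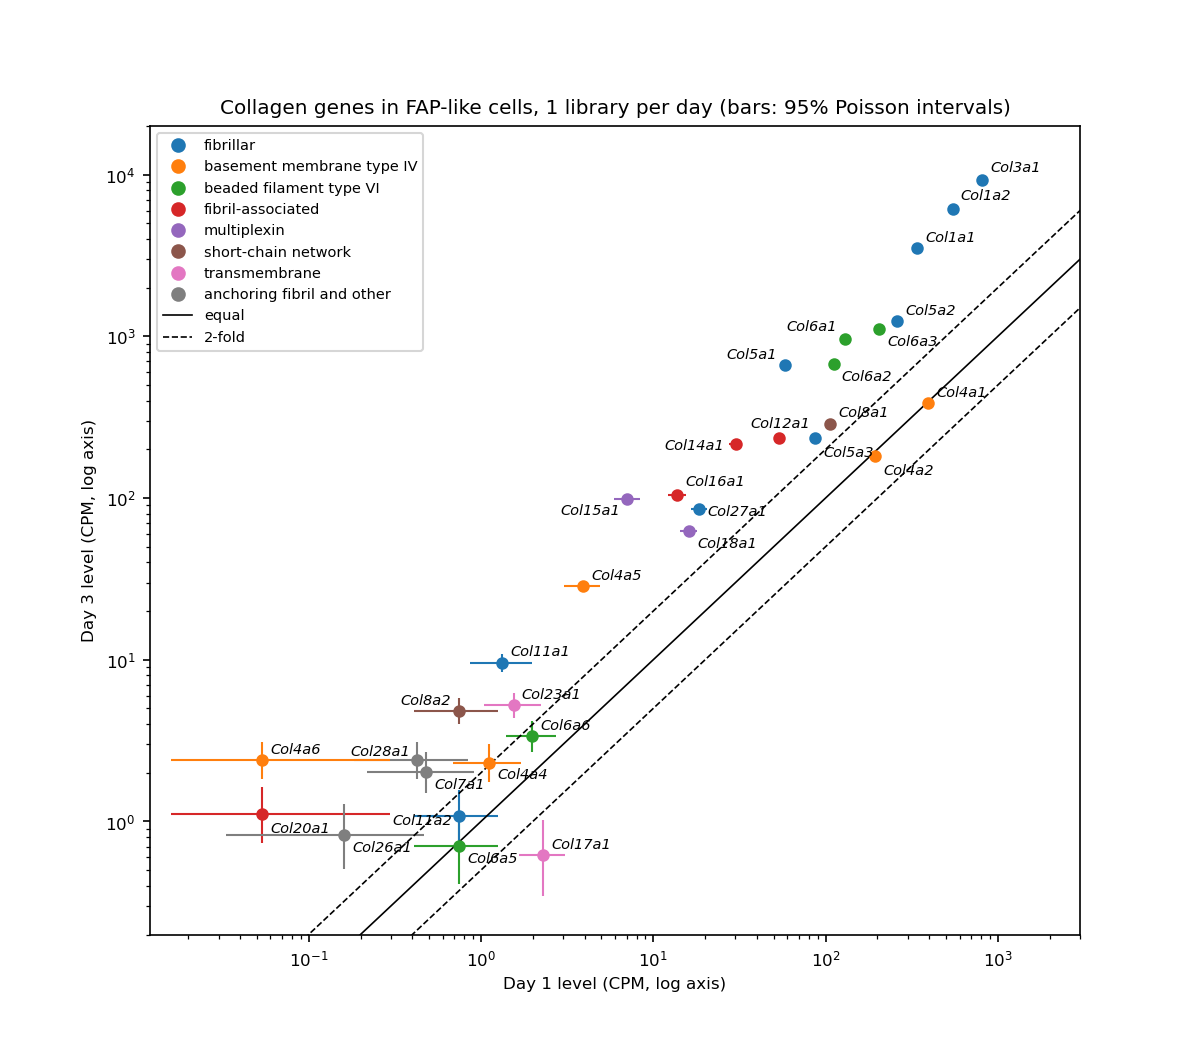
Level of the 32 collagen genes in FAP-like cells on day 1 (horizontal log axis, CPM) against day 3 (vertical log axis, CPM), coloured by collagen class, with exact Poisson 95% intervals as bars (the left bars of *Col4a6* and *Col20a1*, with 1 UMI on day 1, are drawn short of their lower bound). Solid and dashed lines mark equal levels and 2-fold differences. Most genes lie above the upper dashed line, *Col4a1* and *Col4a2* lie at the line of equal levels, and *Col17a1* lies below the lower dashed line.

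The fibrillar genes held the highest levels. Of 11 fibrillar genes, 9 were compared, and 8 were at least 2-fold higher on day 3, against 26.5% of all genes compared. The median log2 ratio was 2.82. *Col3a1*, the sole chain of type III collagen, stood at 809.8 CPM on day 1 and 9287 CPM on day 3, a log2 ratio of 3.52 (95% counting interval 3.50 to 3.54). *Col1a2* (GRCm38, chr6:4504814-4541544), a chain of type I collagen, stood at 546 and 6155 CPM (3.49, 3.47 to 3.52). *Col1a1* (chr11:94936224-94953042), its partner chain, stood at 339.9 and 3519.6 CPM (3.37, 3.34 to 3.41). The chains of types I and III were thus near each other in ratio, and each was above its ambient level of the same day, which was 163 and 2101 CPM for *Col3a1*. *Col5a1*, a chain of type V collagen, which nucleates fibrils, reached a like ratio from a lower level, at 58.1 and 666 CPM (3.52, 3.43 to 3.61).

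The other chains of type V collagen showed smaller ratios. *Col5a2* was at 261 CPM on day 1 and 1243 CPM on day 3 (2.25), and *Col5a3* at 86.7 and 235 CPM (1.44). *Col27a1*, a fibrillar chain best known from cartilage, was at 18.6 and 85.1 CPM (2.20), and *Col11a1*, the type XI chain known from cartilage and early fibrils, at 1.33 and 9.59 CPM (2.82). *Col11a2* was within 2-fold at 0.746 and 1.07 CPM and lay under the ambient level on both days (3.33 and 1.53 CPM), so not every fibrillar gene was higher on day 3. *Col24a1* had 0 UMIs in FAP-like cells on day 1 and 17 on day 3, and *Col2a1*, the main cartilage collagen, had 4 and 1.

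Neighbouring collagen genes could have unlike ratios. *Col3a1* (GRCm38, chr1:45311538-45349706, + strand) and *Col5a2* (chr1:45374321-45503282, - strand) lie tail to tail, 24614 bases apart, with log2 ratios of 3.52 and 2.25.

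The sequences before 4 genes are shown because 3 of them, *Col1a2*, *Col3a1* and *Col5a1*, had nearly the same ratio in FAP-like cells, while the level of *Col13a1* was highest in myogenic-like cells. They were taken from RefSeq on build GRCm38.p6, 5′ to 3′ on the strand of the gene. For *Col3a1*, *Col5a1* and *Col13a1* they are the 250 bases before the start, and for *Col1a2* the stretch from 248 to 126 bases before the start that overlaps no annotated exon. The RefSeq start of *Col1a2* lies downstream of the gene start given above, so this stretch lies inside the longer annotated gene. Capitals mark TATAAA, or GGGCGG on either strand.
Col1a2 (chr6:4505370-4505492, + strand): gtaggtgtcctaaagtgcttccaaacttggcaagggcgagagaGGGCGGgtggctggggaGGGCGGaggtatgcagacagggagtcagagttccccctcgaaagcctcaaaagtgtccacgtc
Col3a1 (chr1:45311288-45311537, + strand): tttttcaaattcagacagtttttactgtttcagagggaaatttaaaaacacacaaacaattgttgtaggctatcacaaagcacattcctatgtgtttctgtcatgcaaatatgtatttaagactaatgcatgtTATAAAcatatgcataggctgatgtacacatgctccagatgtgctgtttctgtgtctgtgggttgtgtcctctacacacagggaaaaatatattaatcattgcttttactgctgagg
Col5a1 (chr2:27886175-27886424, + strand): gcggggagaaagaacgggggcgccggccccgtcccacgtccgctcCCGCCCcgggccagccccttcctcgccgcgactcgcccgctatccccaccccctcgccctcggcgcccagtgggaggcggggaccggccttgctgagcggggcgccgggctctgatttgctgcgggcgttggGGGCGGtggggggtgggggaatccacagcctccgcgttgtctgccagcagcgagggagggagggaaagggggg
Col13a1 (chr10:61979109-61979358, - strand): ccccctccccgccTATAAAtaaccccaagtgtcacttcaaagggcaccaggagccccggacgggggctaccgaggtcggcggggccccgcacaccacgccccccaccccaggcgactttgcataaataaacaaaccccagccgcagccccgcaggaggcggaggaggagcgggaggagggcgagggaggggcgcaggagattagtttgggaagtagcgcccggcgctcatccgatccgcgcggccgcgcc

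The 3 genes of like ratio did not all hold the same motif. *Col1a2* held GGGCGG at 205 and 188 bases before the start, *Col5a1* held it at 205 (other strand) and 73, and *Col3a1* held none but had TATAAA at 117. *Col13a1* had TATAAA at 237. These and 3 further motifs, 5 in all, were searched on both strands in the 250 bases before the starts of 35 collagen genes that matched a RefSeq entry. GGGCGG was found in 21 of these 35 genes, against 35.4% of 27025 genes. CCAAT was in 37.1% of the collagen genes and 37.5% of all genes, TATAAA in 14.3% and 14.3%, TGANTCA in 2.86% and 7.82%, and CAGCTG in 17.1% and 14.7%. *Col1a2* also held CCAAT, at 109 bases before the start, outside the stretch printed. No marked motif overlapped another in the stretches printed, and a match describes letters only, not a bound site.

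Type IV collagen, the network former of basement membranes, differed from the fibrillar genes in FAP-like cells. *Col4a1* stood at 396 CPM on day 1 and 388 CPM on day 3, a log2 ratio of -0.03 (-0.07 to 0.02), and *Col4a2* at 193 and 181 CPM, a ratio of -0.10 (-0.16 to -0.03). Both chains of the common type IV trimer were thus at nearly the same level on both days, with log2 ratios under the 0.35 of the median gene. They lie head to head on chr8 (11198423-11312826 and 11312805-11449287, overlapping by 22 bases). On day 1, *Col4a1* was above *Col1a1* in FAP-like cells, and on day 3 it was far below it.

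Of the rarer type IV chains, *Col4a5* and *Col4a6* were higher on day 3. *Col4a5*, a chain of a minor network, was at 3.89 CPM on day 1 and 28.6 CPM on day 3 (2.87, 2.53 to 3.25). *Col4a6*, which lies head to head with it on the X chromosome, 1308 bases apart, had 1 UMI and 58 UMIs (4.92, 2.96 to 10.82). *Col4a4* was at 1.12 and 2.31 CPM (1.03), the latter below the ambient 3.26 CPM. Its ratio was at the edge of 2-fold and was under it with 20 principal components (0.89), cells named by marker score (0.87), *Pdgfra*-positive cells only (0.99), ambient UMIs subtracted (0.998), centring (0.68) and 5 added to each count (0.86). Its neighbour *Col4a3* had 4 and 8 UMIs, too few to compare.

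Type VI collagen, the beaded filament of the muscle matrix, was higher on day 3 in its 3 main chains. *Col6a1* was at 130.0 and 965 CPM (2.89), *Col6a2* at 111 and 671 CPM (2.59), and *Col6a3* at 205 and 1107 CPM (2.43). The alternative chains that can take the place of *Col6a3* were at most at 3.39 CPM. Of these, *Col6a6* (1.97 and 3.39 CPM) and *Col6a5* (0.746 and 0.703 CPM) were within 2-fold, and *Col6a4* had 1 and 11 UMIs. The alternative chains were thus far below the main chains in level.

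All 4 fibril-associated genes compared, of 9, were at least 2-fold higher on day 3, against 26.5% of all genes compared. Their median log2 ratio was 2.88. Of the 4, *Col20a1* passed the limit only through day 3. *Col12a1*, which coats fibrils in tissues under tension, was at 54.0 and 235 CPM (2.12), *Col14a1*, known to regulate fibril diameter, at 30.1 and 217 CPM (2.85), and *Col16a1* at 13.8 and 105 CPM (2.92). *Col20a1* had 1 and 27 UMIs (3.83), and its log2 ratio was -0.48 with each library clustered alone. Its day 3 level of 1.12 CPM was below the ambient 2.49 CPM. The remaining 5 genes, *Col9a1*, *Col9a2*, *Col9a3*, *Col19a1* and *Col22a1*, had at most 8 UMIs on either day in these cells. Their sparse counts allow no ratio. The 8 UMIs of *Col22a1*, a collagen of the muscle-tendon junction, were all on day 1.

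The multiplexins of basement membranes were also higher on day 3. *Col15a1* was at 7.09 and 99.2 CPM (3.80), and *Col18a1*, whose end fragment is endostatin, at 16.0 and 62.7 CPM (1.96). *Col15a1* had the largest ratio of the FAP-like cells among genes with at least 100 UMIs. Of the short-chain network collagens, *Col8a1*, known from vessel walls, was at 107 and 288 CPM (1.43), and *Col8a2* at 0.746 and 4.84 CPM (2.65).

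Transmembrane collagens were rare in FAP-like cells. *Col17a1*, known from the hemidesmosomes of skin, was the only compared collagen gene at least 2-fold lower on day 3, at 2.29 and 0.620 CPM (-1.86, -2.84 to -1.01), on 43 and 15 UMIs. *Col23a1* was higher, at 1.55 and 5.25 CPM (1.74). *Col13a1* had 1 and 12 UMIs and *Col25a1* 0 and 1, so the class had no common direction. *Col7a1*, the anchoring fibril collagen, was at 0.480 and 2.03 CPM (2.01), *Col26a1* had 3 and 20 UMIs, and *Col28a1* was at 0.426 and 2.40 CPM (2.42). The day 3 level of *Col26a1*, 0.827 CPM, was below the ambient 0.958 CPM.

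Not all chains of a collagen type kept their proportions between the days. The UMI ratio of *Col1a2* to *Col1a1* in FAP-like cells was 1.61 on day 1 (1.56 to 1.66) and 1.75 on day 3 (1.73 to 1.76), and that of *Col4a2* to *Col4a1* was 0.489 and 0.466, with 95% intervals that overlapped. The ratio of *Col5a2* to *Col5a1* differed most between the days among the pairs computed on both days, at 4.49 (4.20 to 4.80) and 1.87 (1.83 to 1.90). Within type VI, *Col6a3* to *Col6a1* was 1.58 and 1.15, with 95% intervals that did not overlap. A 3-prime assay counts a captured transcript once whatever its length, but capture can differ between genes, so a ratio on 1 day is no stoichiometry of protein chains.

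Single FAP-like cells showed the day difference as clearly as the sums. In cells thinned to 3000 UMIs, the median was 8 collagen UMIs on day 1 (644 cells, 3 shallower cells left out) and 79 on day 3 (811 cells, 19 left out). The difference was seen in nearly every cell: 1 of 644 day 1 cells lay above the day 3 median, and 11 of 811 day 3 cells lay below the day 1 median. The cells of a day come from 1 library and are not replicates of it. Genes also differed in how many cells held them. *Col3a1* was found in 83.2% of FAP-like cells on day 1 and 99.5% on day 3, whereas *Col14a1* was found in 26.4% and 82.2%, and *Col15a1* in 12.8% and 61.8%. In macrophage-like cells, which were shallower (13821 against 25951 UMIs on day 3), *Col15a1* was found in 0.199% and 2.95% of cells.

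**Figure D3:**
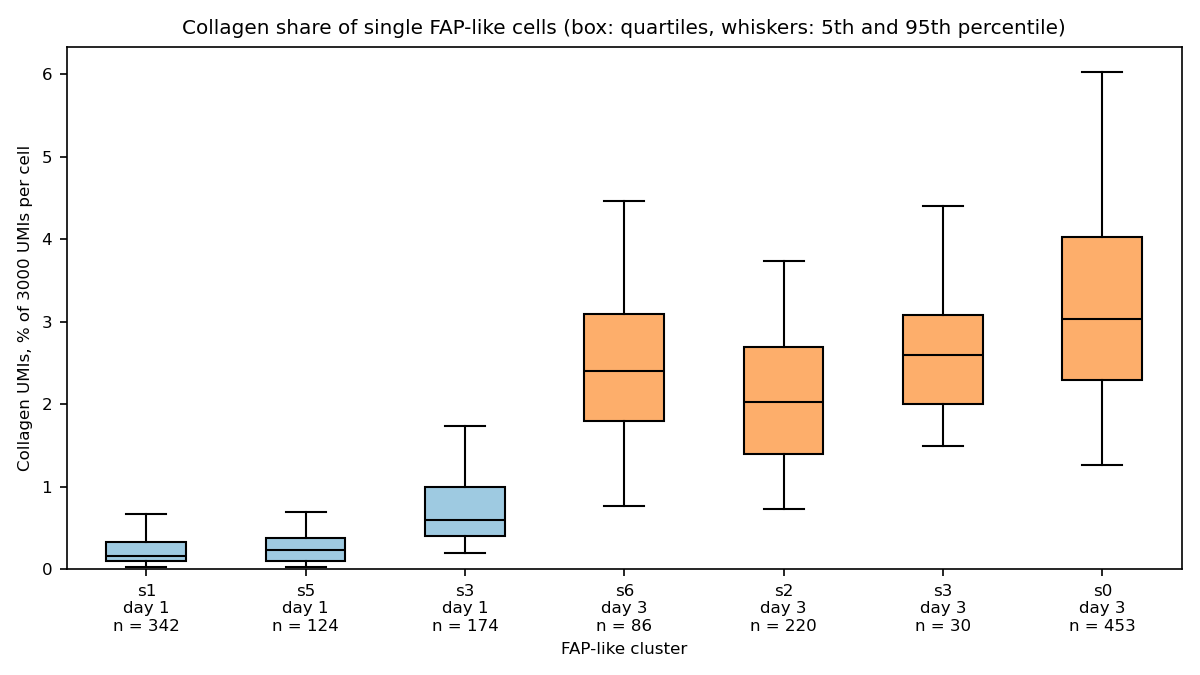
Collagen share of single FAP-like cells (vertical axis, percent of 3000 UMIs) in each cluster with at least 20 cells of a day (horizontal axis). Boxes give quartiles and whiskers the 5th and 95th percentile over cells of 1 library. The day 1 clusters have medians of 0.167, 0.233 and 0.6%, and the day 3 clusters of 2.03 to 3.03%.

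The FAP-like clusters differed among themselves within a day. On day 1, s3 (174 cells, led by *Prg4*, *Dcn*, *Cxcl13*, *Cxcl14* and *Pi16*) held 6947 CPM of collagen, against 2350.35 CPM in s1 (344 cells, led by *Cxcl5*, *Prg4*, *Thbs4*, *Dcn* and *Angptl7*) and 2471 CPM in s5 (124 cells, led by *Prg4*, *Cxcl5*, *Dcn*, *Mfap5* and *Cxcl14*). On day 3, s0 (455 cells, led by *Sfrp2*, *Postn*, *Aspn*, *Bgn* and *Meg3*) held 31535 CPM and s6 (99 cells, led by *Sfrp2*, *Bgn*, *Postn*, *Aspn* and *Meg3*) held 25002 CPM. Of the day 3 clusters with at least 20 cells, the lowest was s2 (223 cells, led by *Sfrp2*, *Postn*, *Bgn*, *Fbn1* and *Aspn*), at 19776 CPM, which was above each day 1 cluster of at least 20 cells. The 16 and 6 day 3 cells of s1 and s5 held 5195 and 11151.5 CPM. Clustering had used no collagen gene, but other genes that go along with collagen could take part in it.

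Cluster s3 was the only FAP-like cluster with at least 20 cells on both days, 174 and 31. Its collagen level was 6947 CPM on day 1 and 26078 CPM on day 3, with *Col3a1* at 1983 and 12135 CPM and *Col1a1* at 747 and 2689 CPM. In the same cluster *Col4a1* was lower on day 3, at 736 and 359.9 CPM (interval 311 to 415), and *Col8a1* was also lower, at 132 and 86.7 CPM (interval 63.5 to 116). *Col11a1* reached 54.6 CPM in the day 3 cells of s3, against 8.04 to 9.08 CPM in the other day 3 clusters of at least 20 cells. *Col14a1*, too, had its highest day 3 level there, at 433 CPM against 133 to 291 CPM.

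In lists of genes that modify, export, process, crosslink or bind collagen, the median ratio in FAP-like cells was below the 2.33 of the collagen genes and above the 0.35 of all genes. Their counts stand beside the 26.5% of 13705 genes that were at least 2-fold higher and the 7.2% that were lower. Of 15 genes of chain modification in the endoplasmic reticulum, 8 were at least 2-fold higher, against 26.5% of all genes, and 0 lower, against 7.2%, with a median log2 ratio of 1.07. *P4ha3*, a catalytic subunit of prolyl 4-hydroxylase, had the largest ratio, at 4.74 and 60.4 CPM (3.66), followed by *P4ha2* (34.4 and 114 CPM, 1.72) and the collagen galactosyltransferase *Colgalt2* (1.23 and 3.64 CPM, 1.55). *Ppib*, a prolyl isomerase and the most abundant gene of this list, was at 618 and 842 CPM (0.45).

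Of 9 genes of chaperoning and secretion, 5 were higher (26.5% of all genes) and 0 lower (7.2% of all genes), with a median of 1.05. *Fkbp14* (1.77), *Sparc* (1.54) and *Mia3* (1.32), a receptor that loads collagen into export carriers, had the largest ratios, and *Sparc*, a collagen-binding matrix protein, was the most abundant at 1901 and 5509.7 CPM. Of 8 genes of propeptide removal, 7 were compared, 3 were higher and 1 lower, beside the same shares of all genes, with a median of 0.96. *Tll1*, a protease related to *Bmp1*, was the lower gene, at 10.9 and 2.85 CPM (-1.92), and *Adamts2* (1.44) and *Adamts3* (1.33), which remove the amino propeptides, were higher. *Pcolce*, an enhancer of the removal of the carboxy propeptide and the most abundant, was at 279.7 and 673 CPM (1.27).

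All 5 crosslinking genes were compared, 3 were higher, against 26.5% of all genes, and 0 lower, against 7.2%, with a median of 1.16. *Loxl2* had the largest ratio, at 34.4 and 149.9 CPM (2.12), followed by *Loxl3* (63.3 and 142 CPM, 1.16) and *Lox*, the most abundant, at 473 and 1056 CPM (1.16). Of 10 collagen receptors, 9 were compared, 6 were higher and 0 lower, beside the same shares, with a median of 1.45. *Itga11*, whose integrin binds fibrillar collagen, was at 3.47 and 22.4 CPM (2.68), *Itga1* at 5.22 and 21.7 CPM (2.05), and the leukocyte receptor *Lair1* at 2.35 and 14.3 CPM (2.59). Macrophage markers in FAP-like cells summed to 1345 and 2865 CPM, and their part in the level of *Lair1* was not tested. *Itgb1*, the partner chain and the most abundant, was at 243 and 499.7 CPM (1.04).

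Endothelial-like cells carried a collagen profile of their own, led by type IV. *Col4a1* was at 857 CPM on day 1 (799 to 919) and 1506 CPM on day 3 (1349 to 1677), and *Col4a2* at 595 and 895 CPM, both above the FAP-like cells on each day. These UMIs were spread widely, with *Col4a1* in 91.6% of 83 cells on day 1 and in all 23 cells on day 3. In macrophage-like cells, *Col4a1* was found in 3.16% and 4.27% of cells, at median depths of 11131.5 and 13821 UMIs against 7310 and 9316 in endothelial-like cells.

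Of the 14 collagen genes compared in endothelial-like cells, 11 were at least 2-fold higher on day 3, against 16.0% of 6540 genes, and 0 were lower, against 12.3%. Of the 11, 7 had fewer than 20 UMIs on day 1 and passed the limit through day 3, *Col15a1* among them, so the count is a description only. The largest ratio was that of *Col15a1*, at 17.0 and 459 CPM (4.71, 3.98 to 5.61), seen in 12 of 83 and 14 of 23 cells. *Col18a1* was at 43.7 and 193 CPM (2.15). The class was made of cluster s7, with 52 and 22 cells, and s9, with 31 cells on day 1 and 1 on day 3, and s9 held 9596 CPM of macrophage markers on day 1. Within s7 alone, *Col15a1* stood at 23.7 and 459 CPM, while *Col4a1* stood at 1402 and 1611 CPM. Endothelial markers summed to 3179 CPM on day 1, below the macrophage and neutrophil markers, and to 4268 CPM on day 3. Markers of other cell types moved with the day in this class. Mural cell markers summed to 270.5 CPM on day 1 and 1911 CPM on day 3, and satellite cell markers to 33.0 and 445 CPM. Erythroid markers summed to 1762 and 4.497 CPM, macrophage markers to 6631 and 917 CPM, and neutrophil markers to 3707 and 144 CPM. The part of these other cell types in the collagen values was not tested. *Col20a1* had 21 UMIs on day 1, but 16 of them came from 1 cell. For *Col5a2*, 1 cell held 15 of 31 UMIs on day 1. The type VI genes, all 3 among the 11, rested mostly on 1 cell each on day 3. That cell held 19 of 23 UMIs of *Col6a2*, 28 of 42 of *Col6a1* and 25 of 48 of *Col6a3*.

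On day 3 the 194 myogenic-like cells held a mixture of collagens. Their highest levels were those of *Col1a2* (269.8 CPM, 259 to 281), *Col3a1* (267 CPM, 256 to 277), *Col5a2* (108 CPM) and *Col1a1* (93.0 CPM). *Col1a1* UMIs came mostly from few cells: 28.4% of cells held one, and 20 cells held 95.8% of them. Those 20 cells also held *Dcn* at 278 CPM, against 3.43 CPM in the other 174. Since *Col1a1* was used to divide the cells, its difference between them is no result.

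In the other 174 myogenic-like cells, *Col1a1* was at 4.44 CPM, yet *Col1a2* was at 119 CPM (112 to 127), *Col3a1* at 90.9 CPM and *Col5a2* at 87.0 CPM, in 89.7%, 94.8% and 92.0% of cells. The ratio of *Col1a2* to *Col1a1* in all myogenic-like cells was 2.90 (2.68 to 3.14), above the 1.75 of FAP-like cells, and that of *Col5a2* to *Col5a1* was 4.44 (3.83 to 5.17) against 1.87.

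*Col13a1*, a transmembrane collagen of the neuromuscular junction (chr10:61838236-61979108), had its highest day 3 level in myogenic-like cells, at 17.0 CPM (14.4 to 19.9). It was at 8.99 CPM on 2 UMIs in endothelial-like cells, and at 0.496 CPM in FAP-like cells, with ambient RNA at 2.30 CPM. A UMI was found in 48.5% of myogenic-like cells, against 0.0356% of macrophage-like cells, at median depths of 44517 and 13821 UMIs. At 3000 UMIs per cell the shares were 6.70% of 194 cells and 0 of 2753 cells. *Col19a1*, a fibril-associated collagen, was at 6.60 CPM in myogenic-like cells, against 0.0827 CPM in FAP-like cells, and was found in 23.7% of myogenic-like and 0.178% of macrophage-like cells. *Col8a1* was at 25.7 CPM, in 50.5% of myogenic-like cells, below the 288 CPM of FAP-like cells and the ambient 60.9 CPM. At 3000 UMIs per cell it was found in 6.19% of myogenic-like and 42.5% of FAP-like cells. The myogenic-like levels of these 3 genes were close to the same in the 174 cells without the 20 richest in *Col1a1*, at 17.1, 6.98 and 23.9 CPM.

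Ambient RNA puts UMIs into every droplet, and it keeps the genes of 1 source in 1 ratio. The UMIs of each collagen gene in a cell type were therefore set against those expected from the ambient profile, scaled on *Col1a1*, *Col1a2* and *Col3a1*, and also against the FAP-like profile, and a gene was counted where it exceeded both by at least 2-fold with the whole interval. This scale takes all UMIs of the 3 scaling genes as ambient. The share of all genes that exceed both profiles is not given, so the counts by cell type are a description only. In endothelial-like cells, 6 of 7 genes with at least 20 UMIs exceeded both on day 1 and 9 of 11 on day 3, *Col4a1* by 68.1-fold and 107-fold over the ambient expectation. The type VI genes of day 3, and *Col20a1* on day 1, are counted here though they rested mostly on 1 cell each, as given above. In myogenic-like cells of day 3, 6 of 20 exceeded both: *Col19a1* by 80.1-fold, *Col13a1* by 51.6-fold, *Col18a1* by 4.93-fold, *Col27a1* by 3.46-fold, *Col8a1* by 2.94-fold and *Col5a2* by 2.51-fold. *Col1a1*, *Col1a2* and *Col3a1* cannot be judged in this way because the scale rests on them. Where they had at least 20 UMIs they are still among the genes compared, here and in leukocyte-like cells.

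**Figure D4:**
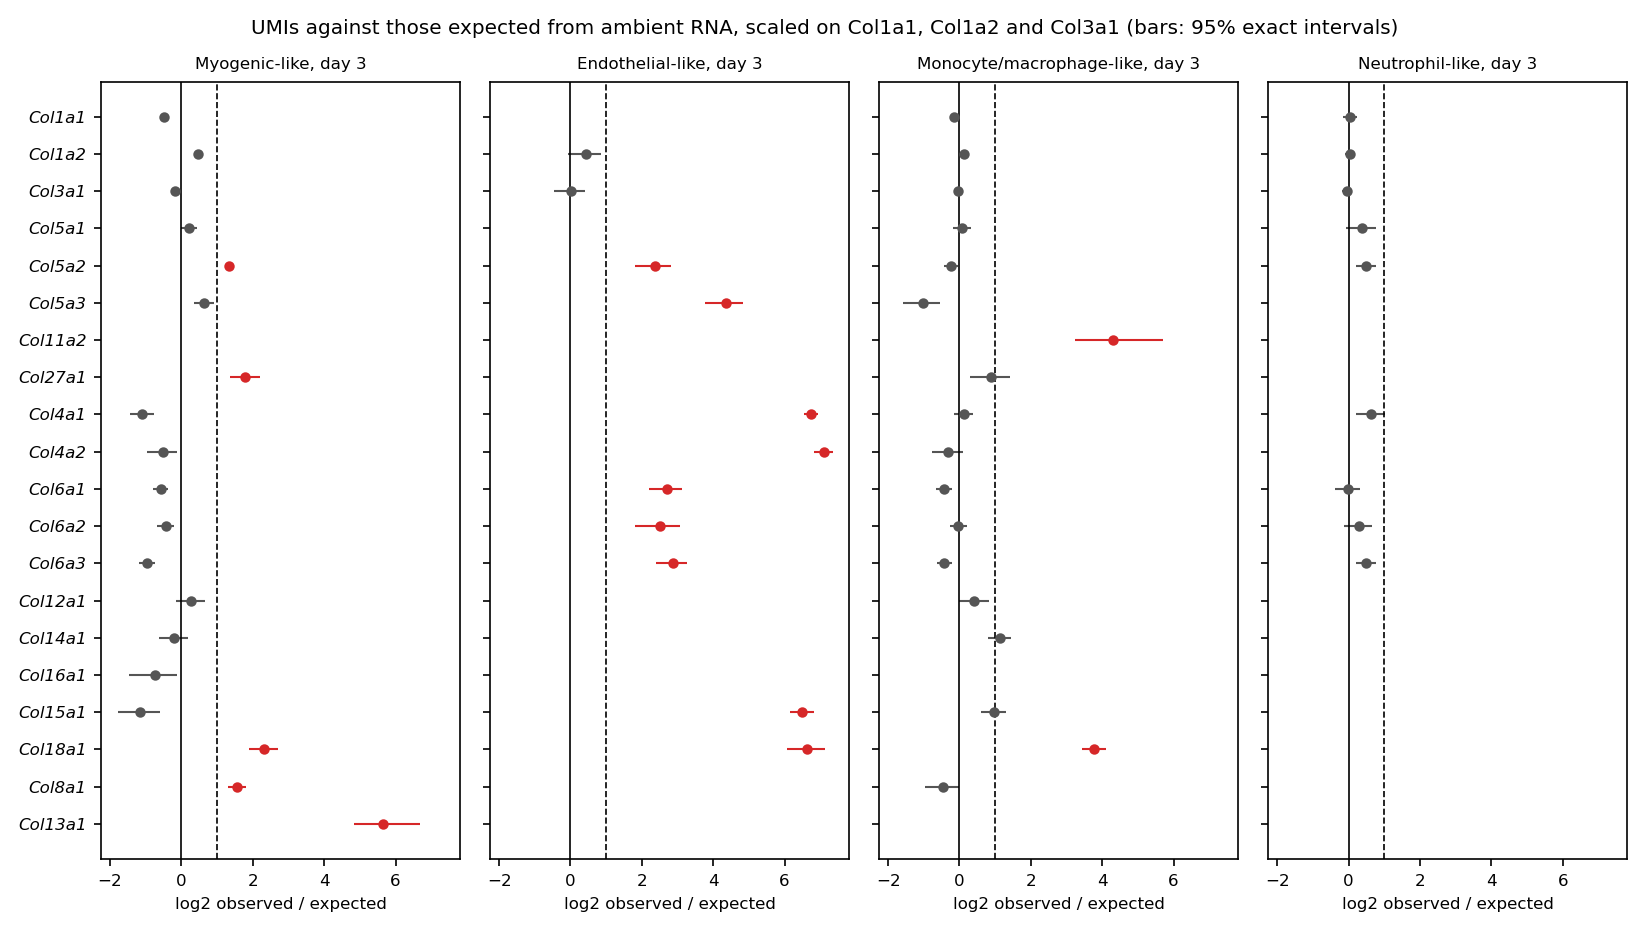
Day 3 UMIs of 20 collagen genes (vertical axis) in 4 cell types over those expected from ambient RNA (horizontal axis, log2 scale, bars 95% exact intervals), scaled on *Col1a1*, *Col1a2* and *Col3a1*. Solid and dashed lines mark 1-fold and 2-fold, and red points exceeded both the ambient and the FAP-like profile. Neutrophil-like cells have 0 red points, macrophage-like cells have *Col18a1* and *Col11a2*, and most endothelial-like points are red. The scaling genes are plotted too, but cannot be judged because the scale rests on them.

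The leukocyte-like cells were set against the same profiles, again without the share over all genes. In macrophage-like cells the 3 scaling genes stood at 1.49% of their ambient level on day 1 and 2.27% on day 3. With these 3 among the genes compared, 2 of 8 genes on day 1 and 2 of 18 on day 3 exceeded both profiles. The day 1 genes were *Col4a1* (154 UMIs, 2.89-fold over the ambient expectation) and *Col11a2*. On day 3 they were *Col11a2* and *Col18a1*. *Col18a1* had 263 UMIs, 13.6-fold over the expectation, at 5.90 CPM (5.21 to 6.66) in 5.41% of 2810 cells. On day 1 *Col18a1* was at 0.466 CPM in these cells, and in dendritic cell-like cells it was at 2.65 and 0.383 CPM.

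Ambient collagen was also higher on day 3 than on day 1 (6181 against 732 CPM), and its part in the day ratios of leukocyte-like cells was not tested. In macrophage-like cells 15 of 19 genes were at least 2-fold higher on day 3, against 31.3% of 12930 genes, and 1, *Col11a2*, was lower, against 5.39%. Of the 15, 10 had fewer than 20 UMIs on day 1 and passed the limit through day 3. The 69 day 1 UMIs of *Col11a2* lay in 69 macrophage-like cells, 1 each, at 1.69 CPM, and it was at 0.718 CPM on day 3. In dendritic cell-like cells 7 of 10 were higher, against 19.3% of 10184 genes, and 2 were lower, against 3.93%. Of the 7, 6 passed the limit only through day 3. The lower ones were *Col4a1* and *Col4a2*, and 37 of the 66 day 1 UMIs of *Col4a1* came from 1 cell. In neutrophil-like cells 11 of 12 were higher, against 45.5% of 8096 genes, and 1 was lower, against 9.02%. Of the 11, 10 passed the limit only through day 3, so these counts in leukocyte-like cells say little of the members. The lower gene in neutrophil-like cells was *Col11a2*, with 31 UMIs at 6.11 CPM on day 1 and 0 on day 3. The exact intervals of these levels, 4.15 to 8.68 CPM and up to 4.22 CPM, overlapped.

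The neutrophil-like cells of day 3 held far more collagen than those of day 1, but in few cells. The scaling genes stood at 30.6% of their ambient level, *Col3a1* was found in 16.9% of 260 cells, 26 cells held 96.7% of its 542 UMIs, and 202 of them came from 1 cell. Of the 9 genes with at least 20 UMIs, 0 exceeded both profiles, but these include the scaling genes, which cannot be judged. On day 1 the 2 genes with at least 20 UMIs, *Col11a2* and *Col15a1*, exceeded both. Markers of FAPs summed to 406 CPM in these cells on day 3 and 127 CPM on day 1, and their part in the collagen level was not tested.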

How the data were processed

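The authors deposited raw UMI counts for every gene and barcode of each library, not normalized. Per the labels and file headers they were made with Cell Ranger on mm10; the processing notes name version 5.0.0, whereas the matrix header reads Cell Ranger 4. From these counts, cells were kept by the limits given above, and the study's own filter left slightly more cells. Counts were normalized with SCTransform (sctransform 0.4.2) and clustered in Seurat 5.3.0 (R 4.3.3) on 3000 variable genes that held no collagen, marker or pathway gene, with 10 principal components and resolution 0.8, and FAP-like and other non-leukocyte cells were clustered again. A cluster took the name of a list with at least 3 raised markers. Scrublet (in scanpy 1.11.5) set a threshold that called 2 cells on day 1 and 0 on day 3, so the threshold had not worked, and doublets were kept. Median doublet scores were 0.168 in s5 on day 1 and 0.102 in s2 on day 3. In the other FAP-like clusters with at least 20 cells of a day they were 0.0237 to 0.0658. Among endothelial-like cells of day 1 they were 0.153 in s9 and 0.0658 in s7. Levels are CPM of summed UMIs with exact 95% Poisson intervals. Ratios have 0.5 added to each count, need 20 UMIs over both days, and have exact binomial intervals. All intervals cover counting error only. Genes named are the collagen genes, by class, and in each pathway list the 3 with the largest ratios in size and the most abundant. Members and lists were chosen with earlier results of these data known. Settings tried are given in the closing section, and 1 of them was chosen after seeing the data. The ratio step was tested on simulated data. Python 3.11.15, numpy 2.4.6, scipy 1.17.1, pandas 2.3.3 and matplotlib 3.10.9 were used. Positions are those of the gene annotation on GRCm38.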

Additional observations from a re-analysis of the deposited data

Results flagged for a closer look

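The day ratios of *Col4a1* and *Col4a2*, the chains of the common type IV collagen, had opposite signs in neutrophil-like and dendritic cell-like cells. The log2 ratio of day 3 over day 1 was 4.60 for *Col4a1* and 3.88 for *Col4a2* in neutrophil-like cells, and -2.95 and -2.66 in dendritic cell-like cells. In neutrophil-like cells these rested on 13 and 56 UMIs of *Col4a1* and 6 and 16 of *Col4a2*. With the cell richest in each gene left out on each day, the ratios were 4.22 and 3.65 against -1.97 and -1.82. The 3.65 of *Col4a2* then rested on 5 and 11 UMIs, under the limit set for a ratio, so it is no check. In neutrophil-like cells both genes had passed that limit only through day 3. Their day 3 levels there, 64.0 and 18.3 CPM, were below the ambient 136 and 63.4 CPM. With 1 library per day the difference between the cell types was not tested.

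Barcodes with more than 7.5% and at most 15% mitochondrial UMIs were outside the cells described, and they held collagen UMIs too. Their summed collagen level was 617.7 CPM on day 1 (130 barcodes) and 6422 CPM on day 3 (570 barcodes), against ambient levels of 732 and 6181 CPM. Those among them that were named FAP-like, 8 and 79 barcodes, held 4844 and 34831 CPM.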

How the results depend on the processing

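The share of collagen UMIs held by FAP-like cells on day 1 and day 3, and their collagen CPM on day 1 and day 3, were recomputed under each setting, and only values that moved beyond their counting interval are given. When cells were called as barcodes above 10% of the UMIs at the 99th percentile, the shares were 96.6% and 97.0% and the day 3 level 25131 CPM. With a mitochondrial limit of 15% the day 3 values were 96.2% and 26108 CPM. With cells under 200 genes per 1000 UMIs removed the shares were 88.1% and 97.8% and the levels 5508 and 30851 CPM. With the highest Scrublet scores removed they were 97.1% and 97.6%, 3612 and 26859.8 CPM. Clustering on log-normalized counts gave 97.6% and 97.6%, 3318 and 25256 CPM. Use of 20 principal components gave 69.7% and 96.1%, 3648 and 25865 CPM, and a resolution of 0.4 gave 96.8% and 96.5%, 3319 and 25314 CPM. With each library clustered on its own they were 61.6% and 70.2%, 2659 and 24149 CPM, and the log2 ratio of *Col20a1* was -0.48. Naming each cell by its marker score gave 85.6% and 87.5%, 3364 and 25767 CPM. Keeping only cells with *Pdgfra* gave 88.8% and 94.1%, 3371 and 26005 CPM. Subtracting ambient UMIs gave 96.4% and 98.3%, 3439.75 and 26004 CPM. The mean over cells gave 88.9% and 96.5%, 3853 and 27332 CPM, and thinning to 3000 UMIs gave 92.0% and 97.2%, 3855 and 27665 CPM. CPM of UMIs other than collagen gave 26249 CPM on day 3. Without the 2 FAP-like clusters above 1000 CPM of macrophage markers, chosen after seeing the data, they were 76.4% and 68.4%, 3757 and 29356 CPM. The number of genes at least 2-fold lower was 0 with cells under 200 genes per 1000 UMIs removed, with thinning and with at least 100 UMIs per gene, since *Col17a1* then had too few UMIs to be tested. The shares of all genes lower were then 7.81%, 8.73% and 7.24%. With at least 1 UMI per gene, 4 of 43 collagen genes were lower, against 9.85% of all genes, so this count says little of the members. Of 140 levels, 62 stayed within 1.5 times with cells under 200 genes per 1000 UMIs removed, 92 with each library clustered alone, and 82 by marker score. The number of genes at least 2-fold higher stayed within 1.5 times of 26 under all 19 settings, where the share of all genes ran from 18.8% to 36.6%. Of 575 recomputed ratios of single genes, 450 stayed within their interval, 124 moved and 1 reversed. The cause of these shifts was not tested. No paired analysis was possible because each day had 1 library, and no replicate could be left out.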
